A study of Mus musculus with 16 samples.

Results

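The protein series at 20% fat comprises 8 of the 16 RNA sequencing libraries of a feeding study in the mouse hypothalamus. The libraries were chosen by their labels alone, as all those from diets with 20% of energy from fat. The mice were of the inbred strain C57BL/6N in every group, and their age and sex are not given in the sources used here. Protein supplied 1%, 2.5%, 5% or 20% of energy, with 2 libraries at each of these 4 levels, called replicate 1 and replicate 2 below. No other treatment or allele is named in the labels. The other 8 libraries of the study came from diets with 60% fat and the same 4 protein levels, and they enter here as contributors to the estimate of spread and as a set of independent libraries. Whether both libraries of a diet came from different mice is not stated, and p-values therefore measure no more than the scatter between these samples, part of which may be technical. At both fat levels, the labelled diet codes at 1% and 2.5% protein begin differently from those at 5% and 20%. An effect of that split cannot be told apart from protein in any comparison of 1% or 2.5% with 5% or 20%. The same holds for a trend over all 4 levels.

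The hypothalamus balances energy intake against need. Neurons of its arcuate nucleus that make neuropeptide Y (Npy) and agouti-related peptide (Agrp) drive feeding, while neighbouring neurons that process pro-opiomelanocortin (Pomc) into melanocortins restrain it. Scarcity of amino acids is sensed in cells by the mTORC1 kinase complex and by the kinase Gcn2 with its transcription factor Atf4, and shortage of food also raises adrenal glucocorticoids, whose receptor switches on a characteristic set of genes in neurons, glia and vessels. A graded diet series allows the order of such responses to be read, namely which appear at a mild protein reduction and which only at an extreme one.

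Gene counts totalled from 17731242 to 18430086 per library at 20% fat, and 16646 of 47069 genes passed the count filter. The labelled tissue was checked with transcription factor genes of hypothalamic neurons and nuclei, of which 27 of 30 were tested. Their summed level ran from 363 to 464 counts scaled to library size (CPM), and Nkx2-1, a defining regulator of the hypothalamus, lay between 22.9 and 33.3 CPM. Markers of neighbouring cortex and hippocampus were unequal among libraries. Slc17a7, the vesicular glutamate transporter of cortical neurons, stood at 108 and 275 CPM at 1% protein, 80.7 and 562 at 2.5%, 118 and 70.0 at 5%, and 126 and 73.4 at 20%. Replicate 2 of the 1% diet and replicate 2 of the 2.5% diet were thus well above the other 6 libraries. Neurod6, a transcription factor of cortical excitatory neurons, had 219 and 476 counts in these 2 libraries and 22 to 49 in the others. All 10 defining cortex markers were tested. Their summed level was 231 and 473 CPM at 1% protein, 199.6 and 832 at 2.5%, 245 and 198 at 5%, and 249 and 196 at 20%. The same 2 libraries held more choroid plexus signal, with a summed marker level of 495 and 490.3 CPM against 233 to 341 in the other 6. Ttr, transthyretin of the choroid plexus, was at 210.5 and 176 CPM in them and at 5.39 to 29.5 CPM elsewhere. Striatal markers were high in replicate 2 of the 5% diet, where the dopamine receptor gene Drd1 was at 22.6 CPM against 4.84 to 9.35 in the other 7. Counts below are therefore given with and without the cortex-marker libraries where the 2 differ by more than 1.5 times. In bulk tissue, fewer cells of a type and less RNA per cell cannot be told apart.

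**Figure D1:**
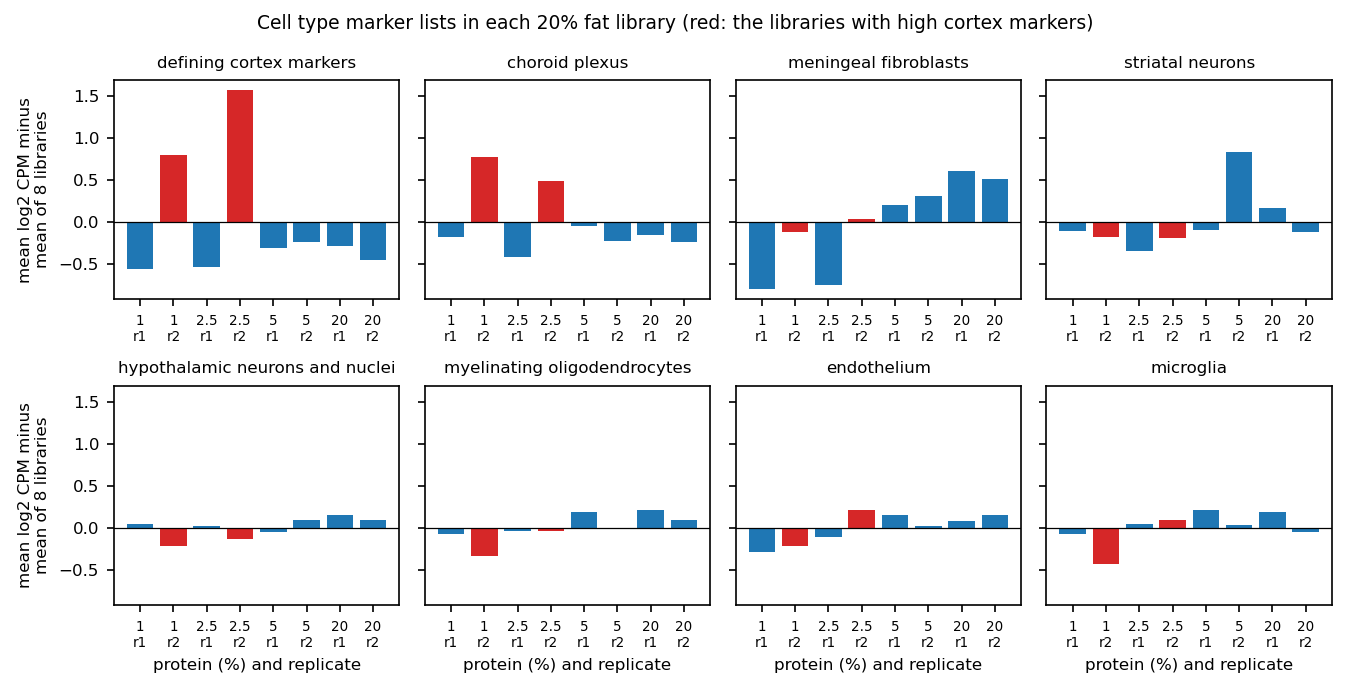
Mean log2 CPM of 8 marker lists in each 20% fat library, as the difference from the mean of the 8 libraries, by protein level and replicate. The cortex list stands at 0.81 and 1.58 in replicate 2 of the 1% and 2.5% diets (red) and between -0.56 and -0.24 in the other 6 libraries, and the meningeal list is lowest in replicate 1 of the same 2 diets.

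In the fit to all 16 libraries, comparisons with the 1% diet called the most genes. The order of the counts changed with libraries left out, as given below. Between 1% and 20% protein, 297 of the 16646 genes tested passed an adjusted p under 0.05 (1.78% of those tested, edgeR quasi-likelihood test with Benjamini-Hochberg adjustment), with 100 higher (0.601%) and 197 lower (1.18%) at 1% protein. Between 1% and 5% protein the count was 87 (0.523%), with 38 higher (0.228%) and 49 lower (0.294%), and between 1% and 2.5% it was 29 (0.174%), with 17 higher and 12 lower. At 2.5% against 20%, 2 genes passed (0.012%), Pomc and Rnf181, both lower. At 5% against 20% the single gene to pass was Rnf181 (0.00601%). Between 2.5% and 5% no gene passed (0%), although 540 genes had an unadjusted p under 0.05 in edgeR and DESeq2 called 1 gene. A test for any difference among the 4 levels called 92 genes (0.553%).

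These counts depended on single libraries. For 1% against 20% the count was 805 without replicate 2 of the 1% diet, 80 without replicate 1 of the 20% diet and 53 without its replicate 2. Leaving out both cortex-marker libraries gave 927, of which 239 were among the 297, and a fit to the 8 libraries alone gave 52, all among the 297. For 1% against 5% the count was 189 and 40 without replicates 1 and 2 of the 1% diet, 9 and 41 without replicates 1 and 2 of the 5% diet, and 57 without replicate 2 of the 20% diet. For 1% against 2.5% it was 61 and 9 without replicates 1 and 2 of the 1% diet, 106 and 3 without replicates 1 and 2 of the 2.5% diet, 13 without either library of the 20% diet, and 3 without both cortex-marker libraries. For 2.5% against 20% it was 108 without replicate 1 of the 2.5% diet, where the remaining library is the one with the highest cortex markers, 25 without both cortex-marker libraries, 1 without replicate 2 of the 20% diet, and 0 without replicate 2 of the 2.5% diet or replicate 1 of the 20% diet. For 2.5% against 5% it was 76 without replicate 1 of the 2.5% diet, 2 without replicate 2 of the 5% diet and 1 without both cortex-marker libraries. For 5% against 20% it was 2 without both cortex-marker libraries or without either library of the 2.5% diet, and 0 without replicate 1 of the 5% diet or either library of the 20% diet. The any-difference count was 47 without replicate 2 of the 1% diet, 232 without replicate 1 of the 2.5% diet, 40 and 33 without replicates 1 and 2 of the 20% diet, and 139 without both cortex-marker libraries. Where 1 library is left in a diet, it is assumed to vary like those of the other diets. The main fit takes its spread from both fat levels. Across genes, the SD of the log2 difference between replicates was 0.435, 0.375, 0.36 and 0.313 at 1%, 2.5%, 5% and 20% protein. At 60% fat it was 0.288 to 0.326. The part of this in the counts and standard errors was not tested.

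**Figure D2:**
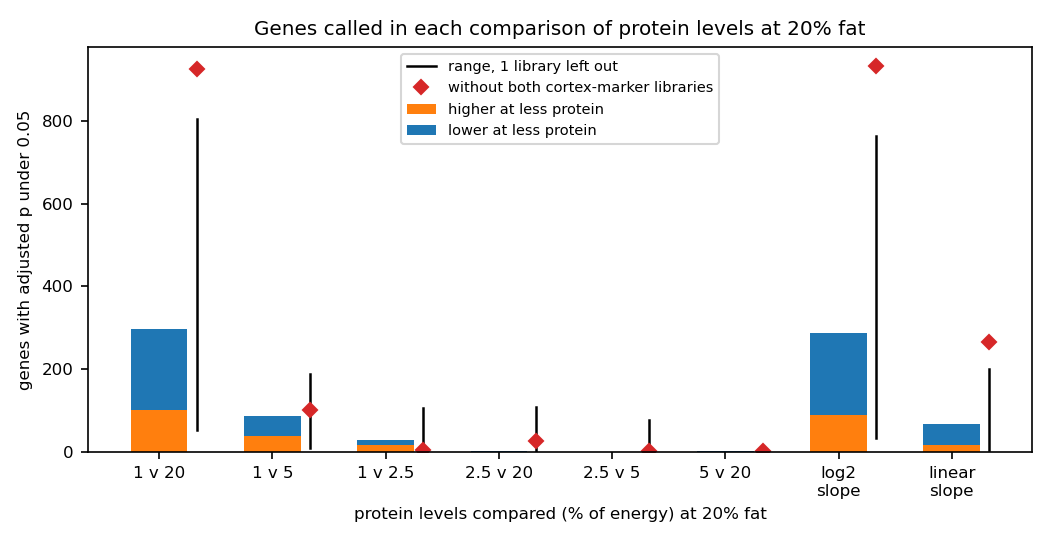
Number of genes with an adjusted p under 0.05 in each comparison of protein levels at 20% fat and for the log2 and linear slopes, divided into genes higher (orange) and lower (blue) at less protein. Black lines span the counts with 1 library left out, and red diamonds are the counts without both cortex-marker libraries. The bar for 1% against 20% stands at 297. No bar of a comparison without the 1% diet exceeds 2, although lines and diamonds there do.

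Npy and Pomc, of the appetite peptides, moved in opposite directions with protein. Npy, the orexigenic peptide (chromosome 6, 49822710 to 49829507, GRCm38), stood at 86.4 and 119.7 CPM at 1% protein, 28.5 and 44.3 at 2.5%, 24.7 and 25.2 at 5%, and 19 and 13.6 at 20%. Every library with less protein lay above both 20% libraries, and those of the 1% diet lay above all others. The log2 change from 20% to 1% protein was 2.66 ± 0.23 (SE, n = 2 libraries a diet, adjusted p = 7.16e-05, edgeR), a 6.34-fold difference. Against 20% protein, the log2 change was 1.16 ± 0.23 at 2.5% (adjusted p = 0.326) and 0.62 ± 0.23 at 5% (adjusted p = 0.998), neither of which passed. The step from 2.5% to 1% passed by itself, at 1.50 ± 0.21 (adjusted p = 0.025, edgeR). Expressed per halving of dietary protein, the log2 level of Npy differed by 0.31 ± 0.12 (SE) between 20% and 5%, 0.55 ± 0.22 between 5% and 2.5%, and 1.13 ± 0.16 between 2.5% and 1%.

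Pomc, the melanocortin precursor (chromosome 12, 3954951 to 3960642), was lower at less protein, and passed at 2.5% as well as at 1%. It stood at 13.7 and 11.8 CPM at 1% protein, 18.7 and 17.2 at 2.5%, 45.2 and 31.4 at 5%, and 58.4 and 43.2 at 20%. All 4 libraries of the 1% and 2.5% diets lay below all 4 of the 5% and 20% diets. This separation falls at the split of the diet codes and cannot be told apart from it. Pomc was lower by 1.99 ± 0.19 log2 units at 1% protein (SE, adjusted p = 0.000148, edgeR) and by 1.50 ± 0.18 at 2.5% (adjusted p = 0.0065), both against 20%. The call at 2.5% was lost in the fit to the 8 libraries alone, where 0 genes passed for 2.5% against 20%. That call also depended on single libraries, as given above for this comparison. The 5% diet did not pass, with a log2 change of -0.41 ± 0.17 (adjusted p = 0.998). Per halving of protein its log2 level differed by -0.20 ± 0.09 between 20% and 5%, -1.09 ± 0.18 between 5% and 2.5%, and -0.37 ± 0.15 between 2.5% and 1%. The middle step had the smallest unadjusted p of any gene between 2.5% and 5% (2.87e-05) but an adjusted p of 0.479. Pomc is also made by the pituitary, whose growth hormone gene Gh had 6 and 19 counts at 1% protein, 0 and 89 at 2.5%, 187 and 76 at 5%, and 17 and 20 at 20%. The 6 other pituitary markers tested summed to 2.82 and 3.69 CPM at 1% protein, 1.83 and 7.62 at 2.5%, 12.9 and 7.79 at 5% and 3.3 and 3.89 at 20%, and Tshb was at 0 counts in all 8 libraries. Both 5% libraries were the highest, and the ranges at 1% and 20% overlapped.

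**Figure D3:**
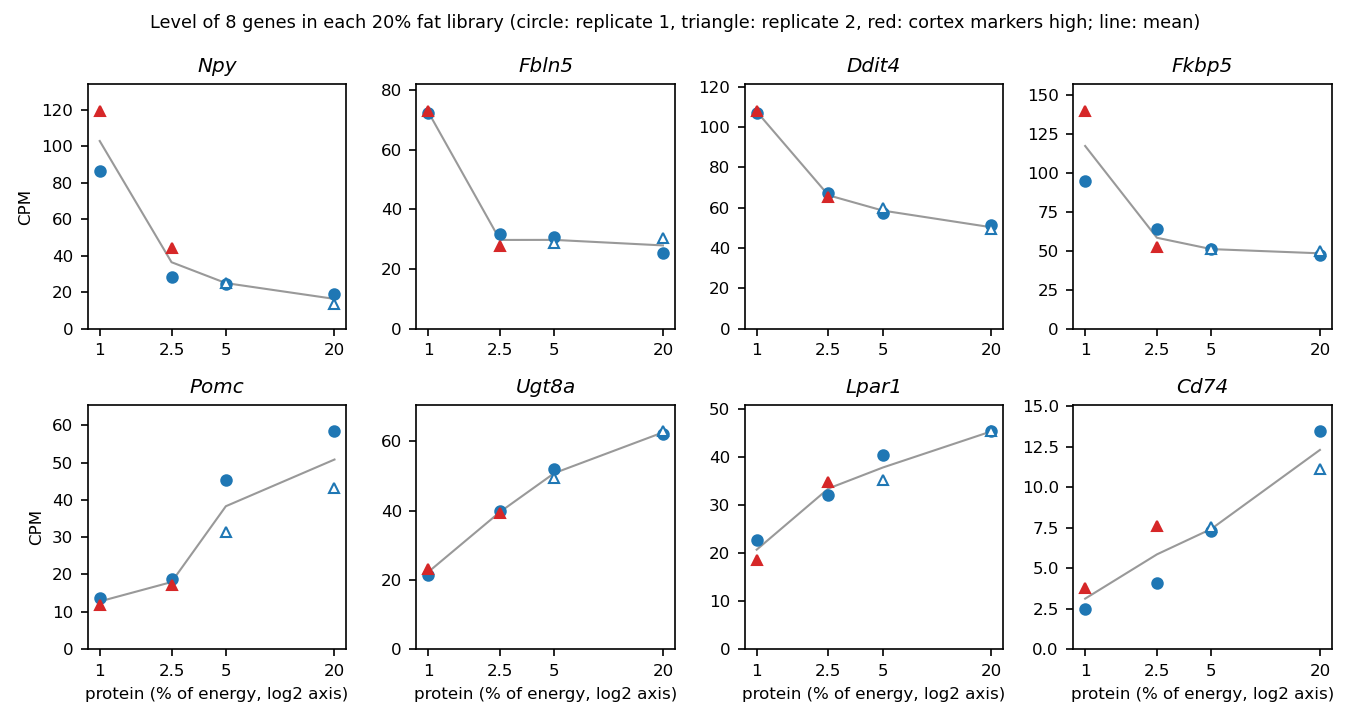
CPM of 8 genes in each 20% fat library against the protein share of energy on a log2 axis, with the mean of each diet as a line. Npy, Fbln5, Ddit4 and Fkbp5 are highest at 1% protein, Pomc separates the 2 lower from the 2 higher levels, and Ugt8a, Lpar1 and Cd74 lie lower with each reduction of protein.

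The remaining peptides of the list gave no such order. Of 10 hunger peptides tested, Npy alone passed for 1% against 20%, and of 20 satiety and other hypothalamic peptides Pomc alone did. Their median log2 changes were 0.078 and -0.011, beside 0.015 over all genes tested. Agrp, which is made in the same neurons as Npy, stood at 5.92 and 8.36 CPM at 1% protein, 5.38 and 4.84 at 2.5%, 4.78 and 6.08 at 5%, and 4.49 and 5.23 at 20%. Replicate 2 of the 1% diet was the highest, and replicate 1 lay within the range of the 5% diet. Its log2 change was 0.55 ± 0.19 (adjusted p = 0.183), and its counted span of 70696 bases overlaps the coding genes Ripor1 and Ctcf, which makes its count uncertain. Hypocretin (Hcrt), the lateral hypothalamic arousal peptide, stood at 187 and 101 CPM at 1% protein, 176 and 113 at 2.5%, 129 and 129.6 at 5%, and 143 and 115 at 20%. The 4 diets overlapped, and the log2 change was 0.16 (adjusted p = 0.791). Without the cortex-marker libraries it was 0.54 with an adjusted p of 0.0283, which passes. Cartpt, Pmch, Qrfp, Crh and Avp, with adjusted p from 0.314 to 0.99, had log2 changes between -0.61 and 0.85. Of 12 prohormone processing genes, the convertase Pcsk2 rose by 0.34 ± 0.08 (adjusted p = 0.0362) and the carboxypeptidase Cpe by 0.29 ± 0.07 (adjusted p = 0.0497). Neither passed at 2.5% or 5%. Of 30 appetite receptors only Gpr50, an orphan receptor of tanycytes, passed, with 10.1 and 8.03 CPM at 1% protein against 14.1 and 17.4 at 20%. None of 24 genes of leptin and insulin signalling passed. With single libraries left out, the call was lost by Pcsk2 and Cpe without replicate 1 of the 1% diet (adjusted p = 0.0584 to 0.0976), by Gpr50 without replicate 2 of the 1% diet (adjusted p = 0.076), by Cpe without replicate 1 of the 2.5% diet (adjusted p = 0.0658), by Cpe without replicate 2 of the 2.5% diet (adjusted p = 0.0657), by Cpe without replicate 2 of the 5% diet (adjusted p = 0.0505), by Pcsk2, Cpe and Gpr50 without replicate 1 of the 20% diet (adjusted p = 0.0628 to 0.152), by Pcsk2, Cpe and Gpr50 without replicate 2 of the 20% diet (adjusted p = 0.201 to 0.378) and by Gpr50 without both cortex-marker libraries (adjusted p = 0.0778).

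Genes that respond to glucocorticoids were raised at 1% protein. Of 25 tested, 13 rose for 1% against 20%, beside 0.601% of all genes, and none fell, beside 1.18%. This list was chosen with earlier results of these data known. Its median log2 change was 0.842 at 1%, 0.271 at 2.5% and 0.041 at 5%. By library, the mean log2 level of the list relative to the 8 libraries was 0.357 and 0.806 at 1% protein, 0.023 and -0.047 at 2.5%, -0.304 and -0.176 at 5%, and -0.371 and -0.288 at 20%. Both 1% libraries were the highest, the cortex-marker library more so, and the 20% libraries overlapped with those of the 5% diet. The count stayed at 13 without the cortex-marker libraries and was 5 and 7 without replicates 1 and 2 of the 20% diet. Over all genes tested the same 2 omissions gave 80 and 53.

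Fkbp5, a chaperone of the glucocorticoid receptor that dampens hormone binding, stood at 94.4 and 139.8 CPM at 1% protein, 64.1 and 52.3 at 2.5%, 50.9 and 50.9 at 5%, and 46.9 and 49.6 at 20%. It was 1.28 ± 0.20 log2 units higher at 1% (adjusted p = 0.00471), with the other 6 libraries between 46.9 and 64.1 CPM. Ddit4, a stress-induced inhibitor of mTORC1 (chromosome 10, 59949669 to 59951834), stood at 107 and 108 CPM at 1% protein, 67.2 and 65.2 at 2.5%, 57.5 and 59.6 at 5%, and 51.2 and 49.3 at 20%. No diet overlapped another, and the replicates of each differed by little. Its log2 change was 1.10 ± 0.11 (adjusted p = 0.000181), and per halving of protein it differed by 0.11 ± 0.06, 0.18 ± 0.11 and 0.53 ± 0.08 from the highest to the lowest step. The cell cycle inhibitor Cdkn1a rose by 1.93 ± 0.33 and the lipid droplet protein gene Plin4 by 1.85 ± 0.38. Hif3a, Arrdc2, Cebpd, Map3k6, Sult1a1, Fam107a and Nfkbia rose by 0.73 to 1.42 log2 units. Members that did not pass included Sgk1, a kinase that regulates ion transport, at 271 and 292 CPM at 1% protein, 231 and 211 at 2.5%, 111 and 192 at 5%, and 128 and 180.1 at 20%. Its 1% libraries were the highest, and its adjusted p was 0.106. Pdk4, Tsc22d3 and the receptor gene Nr3c1 itself had log2 changes of 0.74, 0.39 and -0.14 (adjusted p = 0.155, 0.251 and 0.504). Lcn2, lipocalin 2, had 105 counts in replicate 2 of the 1% diet and 3 to 11 in the other 7 libraries. Calls that depended on a library were those lost by Cdkn1a, Plin4, Sult1a1, Nfkbia, Fkbp5, Hif3a, Arrdc2 and Fam107a without replicate 1 of the 20% diet (adjusted p = 0.0596 to 0.163) and by Cdkn1a, Plin4, Fkbp5, Arrdc2, Map3k6 and Cebpd without replicate 2 of the 20% diet (adjusted p = 0.0557 to 0.135). Pdk4 passed without replicate 1 of the 1% diet, at 1.08 (adjusted p = 0.0229).

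The metallothioneins Mt1 and Mt2, metal-binding proteins under glucocorticoid and zinc control, were spread over the whole range of diets. Mt1 stood at 354 and 348 CPM at 1% protein, 303 and 262 at 2.5%, 265 and 255 at 5%, and 217 and 194 at 20%. The diets were in order, with replicate 1 at 5% above replicate 2 at 2.5%. Mt2 stood at 151 and 151 CPM at 1% protein, 122 and 115 at 2.5%, 119 and 121 at 5%, and 91.8 and 85.8 at 20%. The 5% and 2.5% diets overlapped and lay between the others. The log2 changes from 20% to 1% were 0.77 ± 0.09 and 0.76 ± 0.09 (adjusted p = 0.000537 and 0.00103), and per halving of protein between 20% and 5% they were 0.17 ± 0.04 and 0.22 ± 0.05. At 5% against 20% neither passed (adjusted p = 0.998 and 0.998).

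The promoters of these genes were searched for the glucocorticoid response element, written GNACANNNTGTNC, on both strands of the window from 250 bases before to 50 after each annotated start (RefSeq, GRCm38.p6). Of 22 list members with a window, 4 (18.2%) held it, beside 0.4% of the 11779 tested genes with a window. These were Fam107a, Map3k6, Mt1 and Sgk1, of which the first 3 passed for 1% against 20%. Of the 66 genes that rose and have a window, only those 3 held it, and none of 151 that fell did. The amino acid response element of Atf4, TGATGNAA, was in 11 of 31 promoters of the Atf4 list (35.5%) and in 2.8% of all. It was in 3 of the 66 genes that rose, Fbln5, Il20rb and Zfp46, and in 1 of the 151 that fell, Gjc3. A match describes the letters only. Both lists were made of genes known to respond to glucocorticoids or to amino acid shortage, with earlier results of these data known. Their shares beside those of all genes are therefore no test of these diets. The windows of the 3 genes that rose are shown 5′ to 3′ on the gene's strand with the glucocorticoid element in capitals, for chr8:94178839-94179138 on the plus strand, chr14:8309730-8310029 on the minus strand and chr4:133240568-133240867 on the plus strand.
Mt1: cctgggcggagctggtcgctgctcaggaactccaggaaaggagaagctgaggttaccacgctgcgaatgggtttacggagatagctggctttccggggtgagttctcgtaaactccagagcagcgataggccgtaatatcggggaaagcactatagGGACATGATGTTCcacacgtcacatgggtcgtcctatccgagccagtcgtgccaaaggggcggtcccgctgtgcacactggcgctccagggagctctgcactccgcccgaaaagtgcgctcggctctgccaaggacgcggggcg
Fam107a: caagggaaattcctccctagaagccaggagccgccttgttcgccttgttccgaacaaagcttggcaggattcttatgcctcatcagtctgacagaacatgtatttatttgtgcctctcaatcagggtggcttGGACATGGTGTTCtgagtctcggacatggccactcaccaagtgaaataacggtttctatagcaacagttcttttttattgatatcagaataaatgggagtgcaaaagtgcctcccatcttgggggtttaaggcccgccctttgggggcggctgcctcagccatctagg
Map3k6: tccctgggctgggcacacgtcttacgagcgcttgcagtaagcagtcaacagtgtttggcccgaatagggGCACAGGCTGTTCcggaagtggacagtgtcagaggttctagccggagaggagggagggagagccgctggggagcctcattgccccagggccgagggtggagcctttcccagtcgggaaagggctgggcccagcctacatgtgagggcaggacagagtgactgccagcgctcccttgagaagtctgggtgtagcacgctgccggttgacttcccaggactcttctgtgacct

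Nutrient-sensing genes were little changed apart from Ddit4. Mtor, the kinase itself, stood at 171 and 163 CPM at 1% protein, 168 and 162 at 2.5%, 182 and 164 at 5%, and 163 and 170.1 at 20%. The diets overlapped (adjusted p = 0.999 for 1% against 20%). Of 32 genes of mTOR complexes and amino acid sensing, 1 passed, the mTORC2 component Prr5l, which was lower by 0.58 ± 0.12 log2 units. Of 16 brakes of mTORC1, Ddit4 alone passed. Of 20 effectors of mTORC1, the initiation factor Eif4b alone did, at 0.32 ± 0.08 (0.20 without replicate 1 of the 1% diet). Of 39 genes of the Atf4 and amino acid deprivation list, 1 rose, the serine synthesis enzyme Psat1 (0.32 ± 0.07, adjusted p = 0.0441). The list median was 0.054 at 1%, 0.004 at 2.5% and -0.012 at 5%. Asns, asparagine synthetase and a usual readout of that pathway, stood at 139.7 and 117 CPM at 1% protein, 122 and 111 at 2.5%, 120.1 and 105 at 5%, and 117 and 116 at 20%. The range of the 1% diet overlapped those of the 2.5% and 5% diets. Of 24 amino acid transporters, Slc38a5 alone passed, and it was lower, with 0.885 and 1.52 CPM at 1% protein against 3.41 and 3.31 at 20%. Read against the 1.78% of all genes, counts of 1 gene a list are not a result about these lists. Of 75 ribosomal protein genes none passed, and 75 of 75 had a log2 change above 0, beside 8825 of all 16646 genes tested. Their median was 0.246 at 1%, 0.124 at 2.5% and 0.051 at 5%. Of 78 nuclear genes of the respiratory chain none passed, and 76 had a change above 0, with a median of 0.165 at 1%. Ribosomal protein genes have near-identical copies, which makes their counts uncertain. The mean log2 level of the ribosomal list was 0.261 and 0.005 in the 1% libraries and 0.041 and -0.267 in the 20% libraries, so that these diets overlapped. The rank correlation of a gene's log2 deviation with its counted length was -0.258 and 0.166 in the 1% libraries and -0.095 and 0.315 in the 20% libraries, and the part of length in the ribosomal values was not tested. The call for 1% against 20% protein was lost by Eif4b, Psat1 and Slc38a5 without replicate 1 of the 1% diet (adjusted p = 0.156 to 0.219), by Prr5l without replicate 2 of the 1% diet (adjusted p = 0.0506), by Eif4b and Slc38a5 without replicate 1 of the 2.5% diet (adjusted p = 0.056 to 0.0597), by Eif4b and Slc38a5 without replicate 2 of the 2.5% diet (adjusted p = 0.056 to 0.0594), by Eif4b, Psat1 and Slc38a5 without replicate 1 of the 5% diet (adjusted p = 0.0549 to 0.0584), by Eif4b, Psat1 and Slc38a5 without replicate 2 of the 5% diet (adjusted p = 0.0571 to 0.0613), by Prr5l, Eif4b, Psat1 and Slc38a5 without replicate 1 of the 20% diet (adjusted p = 0.0801 to 0.171) and by Prr5l, Eif4b, Psat1 and Slc38a5 without replicate 2 of the 20% diet (adjusted p = 0.198 to 0.314).

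**Figure D4:**
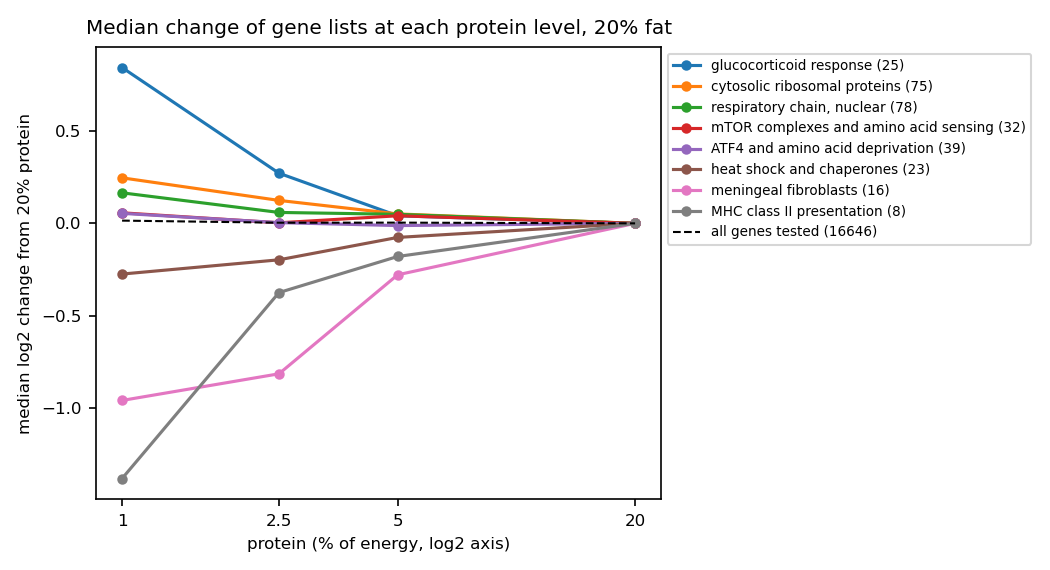
Median log2 change from 20% protein of 8 gene lists at 1%, 2.5% and 5% protein at 20% fat, with the number of genes tested in brackets and all genes as a dashed line. The glucocorticoid list stands at 0.842 at 1% and 0.041 at 5% protein, the MHC class II list at -1.379 and -0.179, and the mTOR and Atf4 lists stay near 0.

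Few lipid genes passed between the lowest and highest protein level. Of 35 genes of fatty acid and ketone use, 3 rose, beside 0.601% of all genes tested, and 1 fell, beside 1.18%. Angptl4, a lipoprotein lipase inhibitor induced in fasting, stood at 14.7 and 17 CPM at 1% protein, 7.16 and 7.56 at 2.5%, 12.2 and 8.12 at 5%, and 5.89 and 5.92 at 20%. Both 1% libraries were the highest, and the 5% diet lay above the 2.5% diet. Its log2 change was 1.42 ± 0.17 (adjusted p = 0.000957). The triglyceride lipase Pnpla2 rose by 0.73 ± 0.11 and Plin4 is given above. Fabp7, a fatty acid carrier of astrocytes and tanycytes, stood at 7.08 and 7.16 CPM at 1% protein, 9.42 and 16.3 at 2.5%, 14.6 and 21.3 at 5%, and 24.1 and 21.3 at 20%. Both 1% libraries were the lowest, and it fell by 1.67 ± 0.23 log2 units (adjusted p = 0.00293). Of 32 genes of cholesterol and fatty acid synthesis, 2 fell, again beside 1.18%, the desaturase Scd1 by 0.75 ± 0.10 and the sterol demethylase Cyp51 by 0.34 ± 0.07. The median of that list was -0.144 at 1% protein. The count of fatty acid genes that rose was 2 and 1 without replicates 1 and 2 of the 20% diet. With single libraries left out, the call was lost by Cyp51 without replicate 1 of the 1% diet (adjusted p = 0.0666), by Plin4 and Cyp51 without replicate 1 of the 20% diet (adjusted p = 0.129 to 0.163) and by Plin4, Pnpla2, Scd1 and Cyp51 without replicate 2 of the 20% diet (adjusted p = 0.05 to 0.155).

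Several chaperones fell at 1% protein. Of 23 heat shock and chaperone genes, 5 fell, beside 1.18% of all genes tested, and none rose. Their median log2 change was -0.274 at 1%, -0.197 at 2.5% and -0.076 at 5%. At 1% protein 1 of 23 had a change above 0, beside 8825 of all 16646 genes tested. Hsph1, an Hsp110 chaperone, stood at 217 and 244 CPM at 1% protein, 276 and 304 at 2.5%, 346 and 332 at 5%, and 332 and 375 at 20%. Both 1% libraries were the lowest and those of the 5% and 20% diets overlapped, for a log2 change of -0.62 ± 0.09 (adjusted p = 0.00296). Cryab, a small heat shock protein abundant in oligodendrocytes, stood at 98.4 and 80.1 CPM at 1% protein, 128 and 161 at 2.5%, 191 and 141 at 5%, and 183 and 179 at 20%. It fell by 1.02 ± 0.14 log2 units, and its span overlaps Hspb2. Hspa5 and Pdia4, which fold proteins in the endoplasmic reticulum, and Hspb1 fell by 0.35, 0.55 and 0.89. The count of 5 was 8 without replicate 2 of the 1% diet or both cortex-marker libraries, 2 without either library of the 20% diet and 1 in the fit to the 8 libraries alone. Calls that depended on a library were those lost by Hspb1 without replicate 1 of the 1% diet (adjusted p = 0.118), by Hspa5, Pdia4 and Hspb1 without replicate 1 of the 20% diet (adjusted p = 0.0531 to 0.135) and by Hspa5, Pdia4 and Hspb1 without replicate 2 of the 20% diet (adjusted p = 0.109 to 0.255).

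At 1% protein some markers of antigen presentation, endothelium, meninges and glia fell, beside 1.18% of all genes tested. Cd74, the invariant chain of MHC class II, stood at 2.49 and 3.74 CPM at 1% protein, 4.09 and 7.62 at 2.5%, 7.28 and 7.57 at 5%, and 13.5 and 11.1 at 20%. The 1% libraries were the lowest and the 20% libraries the highest, and replicate 2 at 2.5% lay above both 5% libraries. It fell by 1.98 ± 0.30 log2 units (adjusted p = 0.00426). H2-Aa and H2-Ab1, chains of the class II molecule, fell by 2.48 ± 0.52 and 1.81 ± 0.38 from levels at 20% protein of 3.36 to 4.49 CPM. Of 8 genes of that list, 3 passed, and the median was -1.379 at 1%, -0.374 at 2.5% and -0.179 at 5%. The count was 1 without replicate 1 of the 1% diet, without either library of the 20% diet and in the fit to the 8 libraries alone. The call for 1% against 20% protein was lost by H2-Aa and H2-Ab1 without replicate 1 of the 1% diet (adjusted p = 0.103 to 0.113), by H2-Aa and H2-Ab1 without replicate 1 of the 20% diet (adjusted p = 0.127 to 0.135) and by H2-Aa and H2-Ab1 without replicate 2 of the 20% diet (adjusted p = 0.109 to 0.112).

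Of 16 meningeal fibroblast markers, 5 fell, among them the fibrillar collagens. Col1a1 stood at 6.52 and 9.17 CPM at 1% protein, 9.63 and 13.7 at 2.5%, 14.6 and 15.1 at 5%, and 18.5 and 20.0 at 20%. Its 4 libraries below 5% protein were lower than the other 4, and it fell by 1.29 ± 0.18 log2 units from 20% to 1% (adjusted p = 0.00296). The list median was -0.957 at 1% and -0.813 at 2.5%, against -0.278 at 5%. By library the list mean was -0.802 and -0.117 at 1%, -0.751 and 0.034 at 2.5%, 0.2 and 0.307 at 5%, and 0.611 and 0.518 at 20%. In the 1% and 2.5% diets the cortex-marker library was thus the higher of the pair. Without those libraries 13 of the 16 fell. With the cortex marker score as a covariate the count was 9, and it was 1 in the fit to the 8 libraries alone. The count was 1 without replicate 1 of the 1% diet or either library of the 20% diet, 10 without replicate 2 of the 1% diet, and 8 without either library of the 2.5% diet. Summed levels overlapped, at 1165 and 1464 CPM at 1%, 832 and 1155 at 2.5%, 1368 and 1397 at 5%, and 1777 and 1578 at 20%. How much meninges stayed on each dissected block was not tested.

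Of 17 endothelial markers, 4 fell. Itm2a, a membrane protein of brain endothelium, stood at 21.3 and 23.2 CPM at 1% protein, 36.8 and 40.6 at 2.5%, 40.4 and 34.9 at 5%, and 45.5 and 44.9 at 20%. The 1% libraries lay far below the other 6, which ran from 34.9 to 45.5 CPM, and the log2 change from 20% was -1.02 ± 0.10 (adjusted p = 0.000181). Emcn, the endothelial sialomucin endomucin, fell by 1.06 ± 0.18 and the VEGF receptor Kdr by 0.99 ± 0.19. None of 13 mural cell markers passed. Of 15 microglial markers, 3 fell, namely Siglech, Fcrls and Olfml3, by 0.66 to 1.01 log2 units. The microglial list was lowest in replicate 2 of the 1% diet, at -0.436, beside -0.074 in replicate 1. The endothelial count was 2 without replicate 2 of the 1% diet and 1 without either library of the 20% diet, and the microglial count was 2 and 0 in the same cases. Fitted to the 8 libraries alone, 1 endothelial and 0 microglial markers passed. With single libraries left out, the call was lost by Kdr and Fcrls without replicate 2 of the 1% diet (adjusted p = 0.0524 to 0.0586), by Emcn, Kdr, Fcrls, Siglech and Olfml3 without replicate 1 of the 20% diet (adjusted p = 0.0541 to 0.0954) and by Emcn, Kdr, Fcrls, Siglech and Olfml3 without replicate 2 of the 20% diet (adjusted p = 0.0558 to 0.201).

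Oligodendrocyte genes moved in both directions. Ugt8a, the galactosyltransferase that makes the main glycolipid of myelin (chromosome 3, 125865271 to 125938619), stood at 21.5 and 23 CPM at 1% protein, 39.9 and 39.4 at 2.5%, 52.1 and 49.6 at 5%, and 62.3 and 63 at 20%. No diet overlapped another and each step down in protein came with a lower level. It fell by 1.49 ± 0.13 log2 units from 20% to 1% (adjusted p = 7.16e-05), and per halving it differed by -0.15 ± 0.06, -0.36 ± 0.12 and -0.63 ± 0.10 from the highest step to the lowest. Lpar1, a lysophosphatidic acid receptor of myelinating cells, stood at 22.8 and 18.6 CPM at 1% protein, 32.1 and 34.7 at 2.5%, 40.3 and 35.2 at 5%, and 45.2 and 45.3 at 20%. Both 20% libraries lay above the rest, and it fell by 1.13 ± 0.11 (adjusted p = 0.000181). Apod, the lipid carrier apolipoprotein D, stood at 528 and 638 CPM at 1% protein, 369 and 323 at 2.5%, 370.4 and 317 at 5%, and 365 and 339 at 20%. It rose by 0.73 ± 0.11 (adjusted p = 0.00374) at 1% while the other 6 libraries overlapped. Of 16 markers of myelinating oligodendrocytes, 3 fell, Ugt8a, Cryab and the aspartoacylase gene Aspa, and Apod rose. Mog, a structural protein of myelin, was at 98.9 and 76.2 CPM at 1% protein against 111 and 97 at 20% and did not pass (adjusted p = 0.297). Of 11 genes on the precursor list, 3 passed and were lower, Bcas1, Enpp6 and Tmem100. The list median was -0.117, with 0 genes above 0. The precursor markers Pdgfra and Cspg4 did not pass, at -0.02 and -0.01. Of 17 astrocyte markers 2 fell, Fabp7 and the water channel Aqp4. The astrocyte list as a whole did not fall, with a median of 0.038 and 9 of 17 above 0. Of 16 markers of tanycytes and ependyma 2 fell, Gpr50 and the intermediate filament gene Nes. The median of that list was -0.261, with 3 above 0. The count of myelinating genes that fell was 7 and 5 without replicates 1 and 2 of the 1% diet, 5 without both cortex-marker libraries and 2 without replicate 2 of the 20% diet, and the precursor count was 2 without replicate 2 of the 1% diet or both cortex-marker libraries and 1 and 0 without replicates 1 and 2 of the 20% diet. Fitted to the 8 libraries alone, 0 precursor markers passed, and DESeq2 called 5 myelinating genes lower. Calls that depended on a library were those lost by Aqp4 without replicate 1 of the 1% diet (adjusted p = 0.0873), by Gpr50 without replicate 2 of the 1% diet (adjusted p = 0.076), by Gpr50 and Aqp4 without replicate 1 of the 20% diet (adjusted p = 0.0628 to 0.105), by Gpr50, Apod, Aspa, Enpp6 and Aqp4 without replicate 2 of the 20% diet (adjusted p = 0.0652 to 0.303) and by Gpr50 without both cortex-marker libraries (adjusted p = 0.0778).

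Among the largest rises outside these lists were genes of low to moderate level. Otoa, the inner ear protein otoancorin, stood at 2.87 and 3.58 CPM at 1% protein, 1.29 and 0.598 at 2.5%, 1.36 and 0.332 at 5%, and 0.162 and 0.32 at 20%. It rose by 3.70 ± 0.59 log2 units (adjusted p = 0.0064). Itgad, an integrin of leukocytes, Pla2g3, a secreted phospholipase, and Wfikkn2, an inhibitor of myostatin-like factors, rose by 2.26, 2.12 and 1.99. Itgad and Pla2g3 overlap other coding genes, which makes their counts uncertain. Fbln5, fibulin 5 of elastic fibres (chromosome 12, 101746565 to 101819055), stood at 72.2 and 73 CPM at 1% protein, 31.8 and 27.6 at 2.5%, 30.7 and 28.7 at 5%, and 25.2 and 30.5 at 20%. Both 1% libraries were far above the other 6, which overlapped throughout. Its log2 change was 1.38 ± 0.11 against 20% (adjusted p = 7.16e-05) and 1.29 ± 0.11 against 2.5% (adjusted p = 0.000279), and per halving it was 0.05 ± 0.06 between 20% and 5% and -0.0008 ± 0.12 between 5% and 2.5%. Among the lowest, besides those given, were Akr1c14, a steroid-metabolising reductase, at -1.90, the lectin Asgr1 at -1.73, the kinase Pkn3 at -1.61 and the cytokine Il15 at -1.57, each with a level under 3 CPM in all 8 libraries. The call for 1% against 20% protein was lost by Akr1c14, Asgr1, Pkn3 and Il15 without replicate 1 of the 1% diet (adjusted p = 0.0627 to 0.126), by Il15 without replicate 2 of the 1% diet (adjusted p = 0.0679), by Otoa, Itgad, Wfikkn2, Akr1c14, Asgr1, Pkn3 and Il15 without replicate 1 of the 20% diet (adjusted p = 0.0596 to 0.172), by Otoa, Asgr1, Pkn3 and Il15 without replicate 2 of the 20% diet (adjusted p = 0.0652 to 0.267) and by Il15 without both cortex-marker libraries (adjusted p = 0.0506).

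The number of genes called for a slope differed with the scale of protein. Each slope was a contrast of diet means, so these counts do not measure how well a line fits. A slope on log2 protein passed for 287 genes (1.72%), 90 higher (0.541%) and 197 lower (1.18%) at less protein, and a slope on protein percent passed for 68 (0.409%), 16 higher and 52 lower. On the linear scale the 3 lower levels lie close together, so that the slope there is nearly a comparison of 20% protein with the rest. Without both cortex-marker libraries the counts were 933 and 265. Without replicates 1 and 2 of the 20% diet they were 60 and 32 on the log2 scale and 5 and 7 on the linear scale, and without replicate 2 of the 1% diet they were 765 and 201. Without replicate 1 of the 1% diet the linear count was 105. Departure from the linear slope passed for 14 genes (0.0841%), which included Fbln5, Npy, Pomc, Ddit4, Ugt8a, Lpar1, Itm2a, Apod, Igsf1, Etnppl, Sult1a1, Pla2g3 and Cyp2d22. That count was 54 and 1 without replicates 1 and 2 of the 1% diet, 120 and 5 without replicates 1 and 2 of the 2.5% diet, 4 and 9 without those of the 5% diet, 3 and 6 without those of the 20% diet, and 4 without both cortex-marker libraries. Departure from the log2 slope passed for Fbln5 alone (0.00601%, adjusted p = 0.0217). It was called in 75 genes without replicate 1 of the 2.5% diet, 4 without replicate 1 of the 1% diet, 2 without replicate 2 of the 5% diet, and 0 without replicate 2 of the 1% diet, replicate 1 of the 5% diet or replicate 2 of the 20% diet.

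A set of 5 one-parameter shapes was compared gene by gene by their residual sum of squares over the 8 libraries, as a description with no test. Among all 16646 genes the best shape was a step between 1% and 2.5% for 34.9%, a step between 2.5% and 5% for 25.5%, a step between 5% and 20% for 18.7%, a line in log2 protein for 15.1% and a line in protein percent for 5.9%. Among the 92 genes called for any difference, which were chosen on the same libraries, these shares were 62%, 6.5%, 1.1%, 30.4% and 0%. The step at 1% accounted for a share of 0.972 of the variance of log2 CPM in Fbln5, against 0.581 for the log2 line. For Ugt8a the log2 line accounted for 0.881 and the step at 1% for 0.823. For Npy these were 0.845 and 0.786, and for Ddit4 0.838 and 0.881. For Pomc the step between 2.5% and 5% and the log2 line were nearly equal, at 0.873 and 0.869. Without the cortex-marker libraries the shares among the 92 genes were 43.5% for the step at 1%, 33.7% for the log2 line and 21.7% for the step between 2.5% and 5%. Over all genes tested the same shares were then 39.3%, 15.9% and 25.5%. The step at 1% thus stood near its share over all genes.

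The 60% fat libraries, which share no sample with this series, gave a set of genes chosen on other libraries, although both rest on 1 estimate of spread. For 1% against 20% protein at 60% fat, 328 genes were higher and 379 lower. At 20% fat the first set had a median log2 difference from 20% protein of 0.265 at 1%, 0.094 at 2.5% and 0.041 at 5%, and the second of -0.278, -0.141 and -0.085, beside 0.009, 0.002 and 0.002 over all genes. At 1% protein 97.3% of the first set were above 0, at 2.5% 81.1% and at 5% 69.8%, beside 51.8%, 50.7% and 50.5% of all genes. By library, the second set was at -0.464 and -0.122 at 1%, -0.154 and -0.132 at 2.5%, and -0.216 and 0.027 at 5%, so that the 5% libraries differed in sign. Libraries also differed in a trend over gene length and in the mitochondrial share of counts. In replicate 1 of the 1% and 5% diets the rank correlation of log2 deviation with length was -0.258 and -0.135, against 0.166 and 0.186 in replicate 2. The mitochondrial share was 1.776% and 2.188% in the former and 3.197% and 3.103% in the latter. At 20% protein the length correlations were -0.095 and 0.315 and the mitochondrial shares 2.633% and 2.597%. There the second set stood at -0.028 and 0.028. The 1% libraries at 60% fat, on which the sets were chosen, had length correlations of -0.261 and -0.169 and mitochondrial shares of 1.538% and 1.608%. The part of either in the 2 sets was not tested. The log2 line described 89.6% of the first set and 79.4% of the second better than the line in protein percent, beside 64.1% of all genes. Of the 297 genes called at 20% fat, 144 (48.5%) were also called at 60% fat, all in the same direction, and these were 20.4% of the 707 called there. Both comparisons cross the same split of diet codes.

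**Figure D5:**
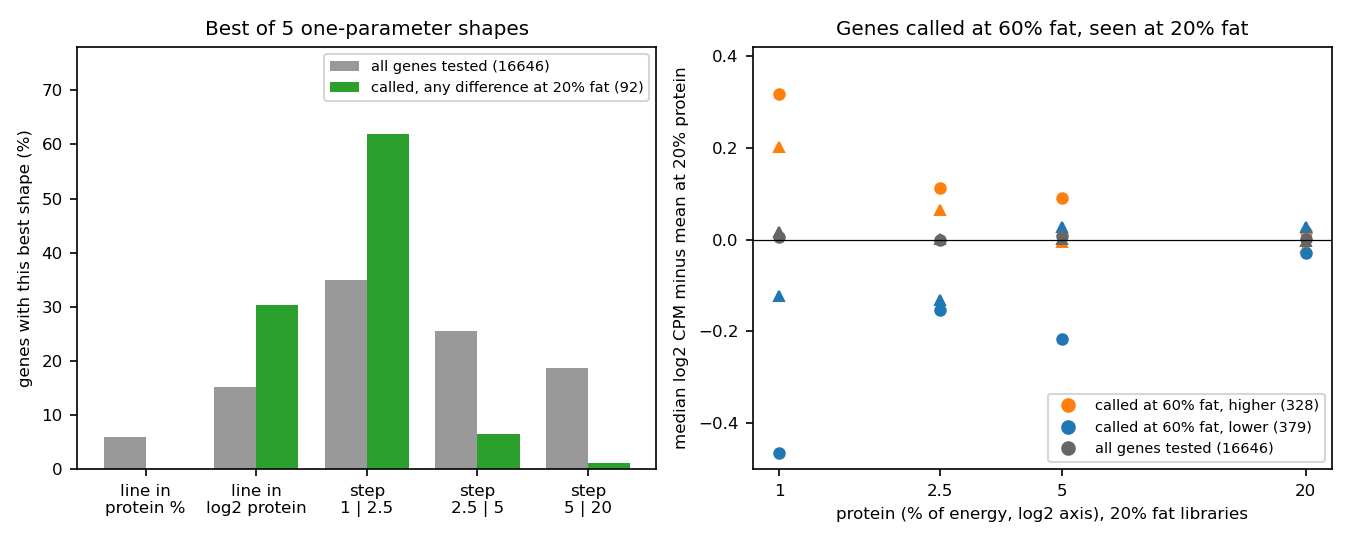
Left, percent of genes whose best shape was each of 5 one-parameter shapes, for all genes tested (grey) and for the 92 called for any difference at 20% fat (green). Right, median log2 CPM of genes called at 60% fat in each 20% fat library (circle, replicate 1, triangle, replicate 2), as the difference from the 20% protein mean, with both sets furthest from 0 in replicate 1 of the 1% diet.

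No gene had a change from 20% to 1% protein that passed as different between the fat levels (0%), and none passed the interaction over 4 levels (0%) with edgeR or DESeq2. In edgeR, 1305 and 674 genes had an unadjusted p under 0.05. Without replicate 1 of the 2.5% diet at 20% fat the interaction passed for 13. At 60% fat mean Npy was 57.5, 25.7, 23.2 and 18.2 CPM at 1%, 2.5%, 5% and 20% protein. The log2 change of Npy was larger at 20% fat by 1.01 ± 0.32 (adjusted p = 0.623). Mean Pomc at 60% fat was 12.6, 32.6, 37.2 and 44.1 CPM in the same order, so that its large step lay below 2.5% there and above 2.5% at 20% fat. The interaction for Pomc had an adjusted p of 0.941.

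Separate genes set single diets or libraries apart. Rnf181, a ubiquitin ligase gene (chromosome 6, 72359714 to 72366956, overlapping Tmem150a), had 66 and 62 counts in the 2 libraries at 20% protein and 0 or 1 in the other 6. It had 0 or 1 in all 8 libraries at 60% fat, those with 20% protein included. The 20% level was thus at least 21.3-fold higher than 3 counts per library, the limit that a count of 0 allows. Rnf181 is the gene that passed for 5% against 20% (adjusted p = 0.0123) and 1 of the 2 that passed for 2.5% against 20%. Meg3, an imprinted long noncoding RNA, had 53 and 61 counts at 1%, 274 and 75 at 2.5%, 275 and 305 at 5%, and 70 and 97 at 20%. The 3 high libraries span the 2.5% and 5% diets, and all 8 libraries at 60% fat had 52 to 94. Meg3 was lower at 1% than at 5% by 2.35 ± 0.44 log2 units (adjusted p = 0.031).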

How the data were processed

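Read counts per gene, not normalised, were deposited by the authors for 16 libraries, 2 for each of 8 diets. The submitters' processing notes list FastQC, HISAT2 (2.1.0), featureCounts, SAMtools (1.2), Subread (5.0), edgeR and the mouse build GRCm38. The sources used here do not give the strand setting of the counting, and reads of overlapping or antisense genes could not be separated. For 76.6% of tested genes matched to GENCODE annotation, the counted length was the whole gene span, so intronic reads can enter.

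Genes passed filterByExpr with a minimum count of 10, and TMM factors set library sizes. One model, edgeR's quasi-likelihood F test (version 4.0.16 in R 4.3.3), had the 8 diets as groups and 8 residual degrees of freedom. P-values were Benjamini-Hochberg adjusted with a threshold of 0.05. Slopes were contrasts of diet means, scaled to the change from 20% to 1% protein. Every CPM value is TMM-scaled, with a prior count of 2 for log2. The scripts were tested on simulated data. Contrasts against 20% protein share its 2 libraries.

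Members, lists and core genes were chosen with earlier results of these data known. Names were given to the 10 highest and 10 lowest changes past the threshold for 1% against 20% (5 and 5 for other contrasts, with a mean of at least 1 CPM), up to 4 members of each function list, and core genes. Others, such as Rnf181, Lcn2, Meg3 by count and many cell type markers, were chosen after their values were seen. Alternatives were another scaling, other filters, DESeq2 (1.42.0), the 8 libraries alone, a replicate block, a cortex marker covariate, removal of a length trend, a regression over 16 libraries, Pearson correlation, and leaving libraries out.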

Additional observations from a re-analysis of the deposited data

How the results depend on the processing

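Counts over all genes tested were recomputed under each alternative, and those that moved by more than 1.5 times are given, with no cause tested for any of them. With no count filter the count was 470 for any difference, 560 for 1% against 20%, 94 for 2.5% against 20%, 6 for 5% against 20%, 101 for 1% against 2.5%, 26 for 2.5% against 5%, 310 for 1% against 5%, 257 for the linear slope, 583 for the log2 slope, 180 for departure from the linear slope, 54 for departure from the log2 slope, 1 for the difference between fat levels and 15 for the interaction. With a minimum mean of 1 CPM it was 1 for 2.5% against 20% and 0 for 5% against 20%. Fitted to the 8 libraries alone it was 8 for any difference, 52 for 1% against 20%, 0 for 2.5% against 20%, 0 for 5% against 20%, 1 for 1% against 2.5%, 5 for 1% against 5%, 6 for the linear slope, 49 for the log2 slope, 2 for departure from the linear slope and 0 for departure from the log2 slope. With the cortex marker score as a covariate it was 144 for any difference, 25 for 2.5% against 20%, 138 for 1% against 5%, 116 for the linear slope, 25 for departure from the linear slope and 2 for departure from the log2 slope. With the length trend removed it was 27 for departure from the linear slope. Without both cortex-marker libraries it was 139 for any difference, 927 for 1% against 20%, 25 for 2.5% against 20%, 2 for 5% against 20%, 3 for 1% against 2.5%, 1 for 2.5% against 5%, 265 for the linear slope, 933 for the log2 slope and 4 for departure from the linear slope. DESeq2 called 239 for any difference, 12 for 2.5% against 20%, 54 for 1% against 2.5%, 1 for 2.5% against 5%, 168 for 1% against 5%, 139 for the linear slope, 71 for departure from the linear slope and 3 for departure from the log2 slope. A regression over all 16 libraries called 1 for the linear slope and 144 for the log2 slope. Pearson correlation with exact permutation called 0 for the linear slope and 0 for the log2 slope. The unadjusted permutation p was under 0.05 for 1130 genes on the linear and 1957 on the log2 scale, and 0.000397 is the smallest p that the 2520 arrangements can give. With 1 library left out, counts ran from 33 to 232 for any difference, 53 to 805 for 1% against 20%, 0 to 108 for 2.5% against 20%, 0 to 2 for 5% against 20%, 3 to 106 for 1% against 2.5%, 0 to 76 for 2.5% against 5%, 9 to 189 for 1% against 5%, 5 to 201 for the linear slope, 32 to 765 for the log2 slope, 1 to 120 for departure from the linear slope, 0 to 75 for departure from the log2 slope, 0 to 0 for the difference between fat levels and 0 to 13 for the interaction. Among list counts for 1% against 20%, the fit to the 8 libraries alone gave 1 for heat shock, MHC class II, endothelial and meningeal genes that fell and 0 for microglial and precursor genes, from 5, 3, 4, 5, 3 and 3. With no count filter, 6 fatty acid genes rose, and 8 heat shock, 12 meningeal and 6 myelinating genes fell.

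With the replicate block, the count was 365 for 1% against 20%, 117 for any difference and 351 for the log2 slope, and no count over all genes moved by more than 1.5 times. Of the list counts, that of myelinating oligodendrocyte genes that fell went from 3 to 5 with the block. Whether the replicate numbers pair the samples is not stated in the labels. Deviations of same-numbered libraries from their diet means correlated at -0.056 to 0.339 over 6 pairs of diets at 20% fat, with 4 over 0.1. Over all 28 pairs of diets they ran from -0.17 to 0.339, with 7 over 0.1. Among the named genes that passed, none changed sign for 1% against 20% or the log2 slope in the alternatives run, and signs of other calls were not compared. For 1% against 20%, Npy, Pomc, Ddit4, Mt1, Mt2, Fbln5, Ugt8a, Lpar1, Itm2a, Igsf1, Etnppl, Angptl4, Cd74, Cryab, Fabp7, Pla2g3, Col1a1 and Nes passed in all 17 alternatives run for single genes. With 2 libraries a diet, a change smaller than the scatter between libraries was not detectable at this depth.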

Other observations

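Single clock, thyroid and growth factor genes passed for 1% against 20% protein, beside 1.78% of all genes tested. Counts of 1 or 2 genes a list are not read here as a result about these lists. Of 17 genes of the circadian clock, the repressor Cry2 alone passed for 1% against 20% protein. Cry2 stood at 126 and 106 CPM at 1% protein, 105 and 104 at 2.5%, 92.5 and 87.8 at 5%, and 89.6 and 90.3 at 20%. Its log2 change was 0.37 ± 0.08 (adjusted p = 0.028, edgeR), and without replicate 1 of the 1% diet it was 0.23 (adjusted p = 0.139). Of 13 genes of thyroid hormone transport and action, Hr, a thyroid-responsive corepressor, rose by 0.98 ± 0.19, and Slco1c1, the thyroxine transporter of brain vessels, fell by 0.53 ± 0.10. Of 16 genes of the growth hormone and IGF axis, the binding protein gene Igfbp5 alone passed, and it fell by 0.32 ± 0.07. With single libraries left out, the call was lost by Cry2 and Slco1c1 without replicate 1 of the 1% diet (adjusted p = 0.0603 to 0.139), by Igfbp5 without replicate 2 of the 1% diet (adjusted p = 0.0674), by Cry2, Slco1c1, Hr and Igfbp5 without replicate 1 of the 20% diet (adjusted p = 0.0885 to 0.135), by Cry2, Slco1c1, Hr and Igfbp5 without replicate 2 of the 20% diet (adjusted p = 0.108 to 0.289) and by Igfbp5 without both cortex-marker libraries (adjusted p = 0.0554).

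Neuronal activity genes did not follow the protein level. None of 20 immediate early genes, which are switched on by neuronal firing, passed. Their median log2 change was -0.055 at 1%, 0.318 at 2.5% and 0.007 at 5%, and the 2.5% diet holds the library with the most cortex signal. The part of cortex in that median was not tested. None of 28 genes of GABA and glutamate signalling, 18 of dopamine and opioid signalling, 15 of the reproductive axis or 25 of autophagy and the lysosome passed, with medians of -0.087, -0.164, -0.371 and 0.018 at 1% protein.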
